A study of Homo sapiens with 6 samples.

Results

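The 10 genes described here encode transcription factors that set the identity of breast epithelium: the luminal and hormone receptor factors *ESR1*, *PGR*, *GATA3* and *FOXA1*, the basal factor *TP63*, and the epithelial factors *ELF5*, *EHF*, *GRHL1*, *GRHL2* and *OVOL1*. They were selected by gene symbol, with no threshold on a measured value, though earlier results of these data were known when the list was drawn up. All 10 were found among the 20824 genes of the expression table, and 8 of them had a mean of at least 0.5 RPKM (reads per kilobase of transcript and per unit of library depth alignments) over the 6 libraries and were tested. *PGR* and *ELF5* fell below that level and are given by their values. The question was how the levels of these factors differed when a human breast cell line carried extra TBX3, a T-box transcription factor that acts mainly as a repressor.

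The cells were 21NT, a human breast line that resembles ductal carcinoma *in situ* (DCIS), stably transfected with a pcDNA3.1 vector that was empty (EV) or carried 1 of the 2 main splice forms of TBX3, TBX3iso1 or TBX3iso2. TBX3iso2 differs from TBX3iso1 by a short stretch inside the DNA binding domain, encoded by an additional exon. All 3 lines were kept under G418 selection in medium with 10% FBS, 12.5 ng/mL EGF, 1 µg/mL insulin and 2.8 µM hydrocortisone, and RNA was taken at 80% confluence. Resistant clones were pooled, so a condition was 1 transfected line measured in 2 libraries. Whether the 2 libraries came from separate cultures is not stated, and SDs and p-values may therefore cover technical spread only.

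In the mammary duct, ERα (*ESR1*), GATA3 and FOXA1 act together in luminal cells, where FOXA1 opens chromatin for ERα and the progesterone receptor gene *PGR* is a classical ERα target. p63 (*TP63*) maintains basal and myoepithelial cells, and ELF5 drives alveolar luminal differentiation. EHF is an epithelial ETS factor, the Grainyhead-like factors GRHL1 and GRHL2 activate junction genes, and OVOL1 is a zinc finger repressor that helps to keep epithelial cells from taking on mesenchymal features.

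The libraries held 43176600 to 54512400 alignments. *TBX3* itself served as the check of the labels. It was measured at 8.52 and 8.24 RPKM in EV, 13.1 and 11.4 RPKM with TBX3iso1 and 17.5 and 15.5 RPKM with TBX3iso2, without overlap. These are totals for the gene, since RPKM were given per gene and do not separate splice forms. The log2 difference from EV was 0.54 with TBX3iso1 (limma adjusted p = 0.00378), short of 1.5-fold, and 0.97 with TBX3iso2 (limma adjusted p = 0.000257). TBX3iso2 lay above TBX3iso1 by 0.43 (limma adjusted p = 0.0275). Between the TBX3 lines, isoform, total *TBX3* level and line can therefore not be told apart. Each line, EV included, was 1 pool of transfected cells, so in every comparison with EV, TBX3 and line cannot be told apart either. The 6 epithelial identity genes *KRT8*, *KRT18*, *KRT19*, *EPCAM*, *CDH1* and *ERBB2* each had at least 84.4 RPKM in every library. Their sums were 2672 to 2766 RPKM in EV, 2102 to 2289 RPKM with TBX3iso1 and 2349 to 2591 RPKM with TBX3iso2. By the rule for calls given below, 0 were higher and 1 lower with TBX3iso1 (16.7%, beside 21.5% of all genes). With TBX3iso2, 0 were higher and 2 lower (33.3%, beside 21.2%). The log2 difference was negative for 5 of the 6 with TBX3iso1 and for 3 with TBX3iso2. Means in EV, TBX3iso1 and TBX3iso2 were 145, 89.2 and 102 RPKM for *CDH1*. They were 680, 459 and 414 RPKM for *KRT19* and 434, 298 and 258 RPKM for *ERBB2*. Of 16 marker genes of fibroblasts, endothelium, immune cells and adipocytes, 13 were in the table. Their summed level was 55.9 to 56.3 RPKM in EV, 43.6 to 44.2 RPKM with TBX3iso1 and 42.6 to 43.0 RPKM with TBX3iso2, most of it *CD68*, and 8, 8 and 9 of the 13 had a mean under 0.1 RPKM, the immune marker *PTPRC* among them. Of the 3 that were tested, *PECAM1* had means of 7.29, 1.15 and 1.29 RPKM and *COL1A1* 4.30, 7.41 and 7.06 RPKM in EV, TBX3iso1 and TBX3iso2. The part of these marker levels in the results below was not tested.

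Promoter windows are shown for 4 members on which the comparisons turned: *GATA3*, the member that differed between the isoforms, *ESR1*, and the pair that fell most with both isoforms, *TP63* and *GRHL1*. Each is the 250 bases before a RefSeq transcript start, 5′ to 3′ on the plus strand, in lower case, with any AGGTGT in capitals. AGGTGT, searched on both strands, is the core of the T-box recognition element. *GATA3* and *ESR1* have 6 windows each, and the window printed for each was picked because it is the 1 that holds AGGTGT, while *TP63* and *GRHL1* have 1 window each.
*GATA3* (GRCh38.p14 chr10:8049604-8049853): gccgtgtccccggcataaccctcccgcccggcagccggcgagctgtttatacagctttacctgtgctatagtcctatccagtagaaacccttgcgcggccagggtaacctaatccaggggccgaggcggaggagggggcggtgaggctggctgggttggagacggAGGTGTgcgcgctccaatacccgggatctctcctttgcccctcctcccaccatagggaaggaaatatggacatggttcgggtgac
*ESR1* (GRCh38.p14 chr6:151808857-151809106): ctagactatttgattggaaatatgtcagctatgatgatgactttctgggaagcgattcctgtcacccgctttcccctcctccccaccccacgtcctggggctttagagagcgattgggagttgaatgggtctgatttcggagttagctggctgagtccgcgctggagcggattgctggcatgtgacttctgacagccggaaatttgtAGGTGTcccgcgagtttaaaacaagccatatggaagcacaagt
*TP63* (GRCh38.p14 chr3:189631139-189631388): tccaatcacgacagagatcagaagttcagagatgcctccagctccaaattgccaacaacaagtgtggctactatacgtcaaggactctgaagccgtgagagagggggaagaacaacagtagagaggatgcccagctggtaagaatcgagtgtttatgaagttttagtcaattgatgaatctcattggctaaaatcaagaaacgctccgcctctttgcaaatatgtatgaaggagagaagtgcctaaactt
*GRHL1* (GRCh38.p14 chr2:9951443-9951692): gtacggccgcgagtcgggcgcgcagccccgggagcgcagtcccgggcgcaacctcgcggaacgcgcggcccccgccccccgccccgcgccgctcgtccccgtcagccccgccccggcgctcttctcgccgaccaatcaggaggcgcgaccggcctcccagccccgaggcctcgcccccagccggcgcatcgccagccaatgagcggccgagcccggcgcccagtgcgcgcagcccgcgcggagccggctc

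RefSeq windows were at hand for 8 of the 10 members, 21 windows in all. AGGTGT was present in 2 of the 21, the *GATA3* and *ESR1* windows printed here, at 85 to 80 and 43 to 38 bases before the start. Of 35116 windows of the same length across the genome, 9.57% held it, about the same share. The longer T-box half-site AGGTGTGA, which contains AGGTGT, was in 0 of the 21 and in 0.786% of all windows. In GRCh37, the build of the alignments, the *TP63* window matched at chr3:189348928-189349177 and the *GRHL1* window at chr2:10091572-10091821, directly before the annotated gene. *TP63* has 8 distinct annotated transcript starts and *GRHL1* has 5, and starts without a window were not searched. The full-length and ΔN forms of p63 arise from separate promoters, which 1 window does not cover. The *GATA3* window matched at chr10:8091567-8091816 and the *ESR1* window at chr6:152129992-152130241, inside the annotated genes but with 0 bases in their exons. These matches are descriptions of sequence, and no binding was measured in these libraries. *OVOL1* and *GRHL2* had no window and were not searched. From chromatin immunoprecipitation arrays, the authors list *OVOL1* among genes with a T-box element that both isoforms bound at overlapping sites.

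The level of the members spanned a wide range within a line. In EV the order from the highest was *EHF*, *FOXA1*, *GRHL2*, *GRHL1*, *GATA3*, *TP63*, *OVOL1*, *ESR1*, *ELF5* and *PGR*, and among neighbors in this order the libraries of *TP63* and *OVOL1* overlapped. *EHF*, at 22.4 ± 0.0317 RPKM (SD, n = 2), stood at the 85.7th percentile of all genes in the table, and *PGR* at the 6.68th. With TBX3iso1 the order was *EHF*, *GRHL2*, *FOXA1*, *OVOL1*, *GATA3*, *GRHL1*, *ESR1*, *TP63*, *ELF5* and *PGR*, with overlap between *GRHL2* and *FOXA1* and between *ELF5* and *PGR*. With TBX3iso2 it was *EHF*, *FOXA1*, *GRHL2*, *OVOL1*, *GRHL1*, *GATA3*, *ESR1*, *TP63*, *ELF5* and *PGR*, with overlap between *EHF* and *FOXA1* and again between *ELF5* and *PGR*. In both TBX3 lines *OVOL1* stood above *GRHL1*, *GATA3* and *TP63*, all of which were above or level with it in EV.

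**Figure D1:**
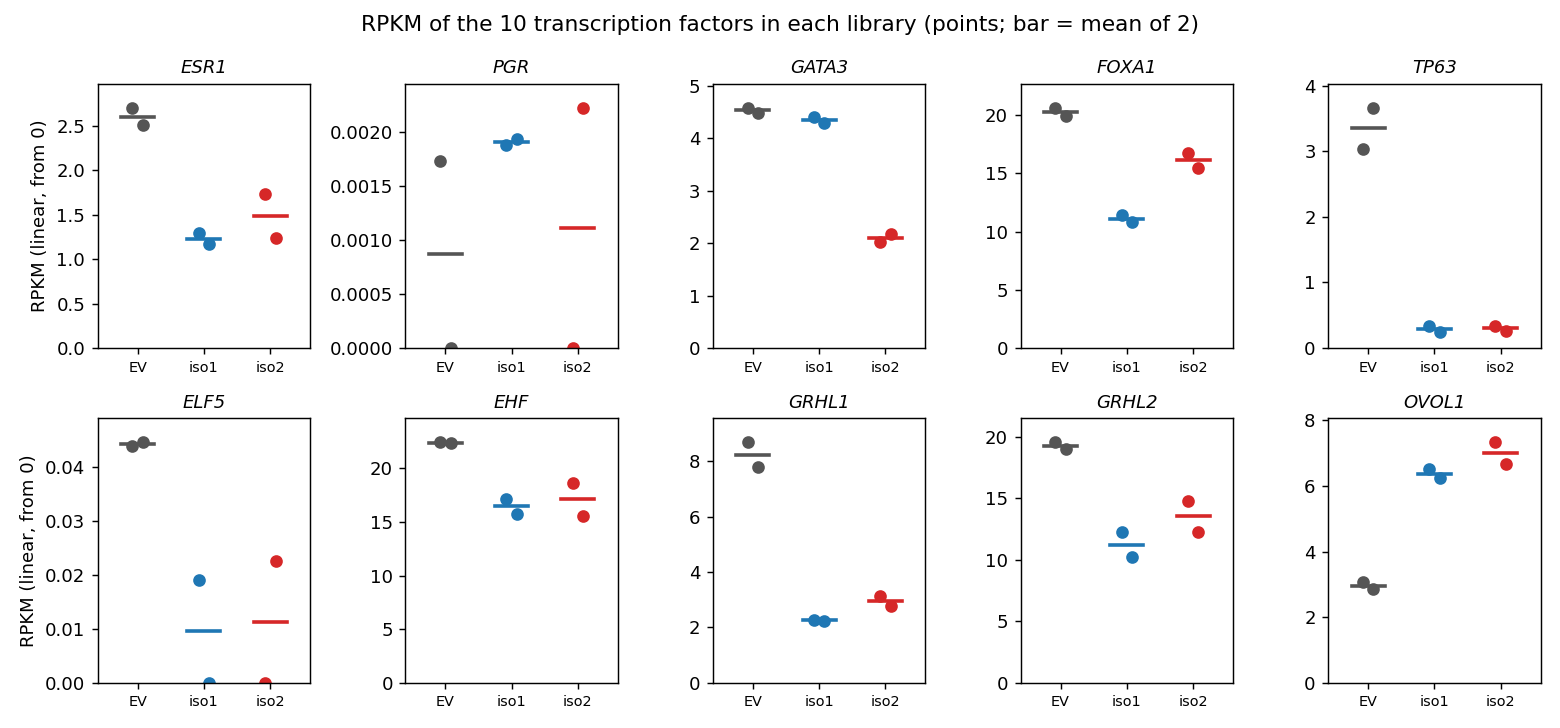
RPKM of each of the 10 factors (vertical axes, linear and starting at 0, each with its own scale) in the 2 libraries of EV, TBX3iso1 (iso1) and TBX3iso2 (iso2); points are libraries and bars are means. *TP63* and *GRHL1* were low in both TBX3 lines, *OVOL1* was high in both, *GATA3* was low with TBX3iso2 only among these 3 lines, and *PGR* and *ELF5* lay near 0 throughout.

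A gene is called here at a limma adjusted p under 0.05 (Benjamini-Hochberg over the 12805 genes tested) together with a fold change over 1.5, on log2(RPKM + 0.1). With TBX3iso1, 6 of the 8 members tested were called against EV, 1 higher and 5 lower, beside 21.5% of all genes tested (7.46% higher and 14.1% lower). With TBX3iso2, 5 of the 8 were called against EV, 1 higher and 4 lower, beside 21.2% of all genes (8.94% higher and 12.3% lower). Between the isoforms 1 of the 8, *GATA3*, was called, lower with TBX3iso2, beside 6.29% of all genes (3.47% higher and 2.82% lower). At any fold, 7, 8 and 2 of the 8 passed the adjusted p in these comparisons, beside 44.8%, 45.5% and 14.8% of all genes. The median log2 difference of the 8 was -0.82 with TBX3iso1 and -0.65 with TBX3iso2, where that of all genes tested was -0.051 and -0.0021. All 8 had libraries that did not overlap with EV in either comparison, which held for 78.4% and 74.7% of all genes tested, and 5 of the 8 did not overlap between the isoforms, as did 53.5% of all genes. Both comparisons used the same EV libraries.

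*GATA3*, on chr10:8087341-8117161 of GRCh37, was the member called between the TBX3iso1 and TBX3iso2 lines. It was measured at 4.59 and 4.49 RPKM in EV, 4.41 and 4.29 RPKM with TBX3iso1 and 2.03 and 2.18 RPKM with TBX3iso2. Both TBX3iso2 libraries lay well below each of the other 4, and the TBX3iso1 libraries lay only just under those of EV. With TBX3iso2 the log2 difference from EV was -1.07 (95% interval -1.30 to -0.85, limma adjusted p = 0.000155). With TBX3iso1 it was -0.059 (95% interval -0.29 to 0.17, limma adjusted p = 0.644), and the sign of this small value turned to 0.084 under quantile normalization. The direct comparison of TBX3iso2 with TBX3iso1 gave -1.01 (95% interval -1.24 to -0.79, limma adjusted p = 0.000998), the 132nd lowest of 12805 values. As the libraries are bulk, fewer cells with *GATA3* RNA and less of it per cell cannot be told apart, here and for the other members.

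*FOXA1* (chr14:38058757-38065264, minus strand), the pioneer factor of luminal cells, was measured at 20.6 and 19.9 RPKM in EV, 11.4 and 10.8 RPKM with TBX3iso1 and 16.8 and 15.4 RPKM with TBX3iso2. The 3 lines did not overlap, and TBX3iso1 was the lowest. Against EV the log2 difference was -0.86 with TBX3iso1 (95% interval -1.05 to -0.68, limma adjusted p = 0.000152) and -0.33 with TBX3iso2 (95% interval -0.51 to -0.15, limma adjusted p = 0.0109), the latter short of the 1.5-fold limit. TBX3iso2 lay above TBX3iso1 by 0.53 (95% interval 0.35 to 0.71, limma adjusted p = 0.00545), again short of the fold limit, which it passed at 0.59 without TBX3iso2 replicate 2. *TTC6*, annotated across *FOXA1* on the opposite strand, had means of 0.211, 0.0848 and 0.120 RPKM in EV, TBX3iso1 and TBX3iso2, and whether strand was used in counting is not stated.

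The balance of the pair was shifted in opposite directions in the TBX3 lines. The ratio of *FOXA1* to *GATA3* RPKM was 4.50 and 4.44 in EV, 2.58 and 2.52 with TBX3iso1 and was 8.28 and 7.07 with TBX3iso2. The libraries of the 3 lines did not overlap in this ratio, and no test was run on it.

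*ESR1* (chr6:151977826-152450754), which encodes ERα, was a gene of middling level. It was measured at 2.70 and 2.50 RPKM in EV, 1.29 and 1.17 RPKM with TBX3iso1 and 1.74 and 1.24 RPKM with TBX3iso2. Each TBX3 library lay below both EV libraries, and the TBX3iso2 pair was the more spread, overlapping with TBX3iso1. The log2 difference from EV was -1.03 with TBX3iso1 (95% interval -1.42 to -0.63, limma adjusted p = 0.00238) and -0.79 with TBX3iso2 (95% interval -1.18 to -0.39, limma adjusted p = 0.00757). The TBX3iso2 call was lost without EV replicate 1 (-0.73, limma adjusted p = 0.0644) and without TBX3iso2 replicate 2 (-0.56, short of the fold limit). In the linear model without limma's moderation of the variance both calls were lost (adjusted p = 0.0544 and 0.0800). Between the isoforms *ESR1* differed by 0.24 with an interval of -0.15 to 0.63.

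*PGR* (chr11:100900355-101000544, minus strand), which encodes the progesterone receptor, was barely detected. Its values were 0.00173 and 0 RPKM in EV, 0.00188 and 0.00193 RPKM with TBX3iso1 and 0 and 0.00223 RPKM with TBX3iso2. Multiplied by the alignments of each library and put on one scale, the 4 values above 0 came to 0.0945 to 0.0971, nearly the same step in each, and no difference between the lines was detectable at this depth. Almost no *PGR* RNA was measured in any line, EV with its higher *ESR1* level included.

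*TP63* (chr3:189349178-189615065), the basal factor, had the largest fall of the 8 members tested. It was measured at 3.04 and 3.66 RPKM in EV, 0.330 and 0.243 RPKM with TBX3iso1 and 0.332 and 0.267 RPKM with TBX3iso2. The 4 TBX3 libraries lay close together and far below EV, and *TP63* passed the level filter through EV alone. The log2 difference from EV was -3.16 with TBX3iso1 (95% interval -3.61 to -2.71, limma adjusted p = 2.84e-05) and -3.11 with TBX3iso2 (95% interval -3.56 to -2.66, limma adjusted p = 2.95e-05). In a fit without that filter, over all 20824 genes, both remained called (limma adjusted p = 0.00166 and 0.00160). The mean level was 8.57% of EV with TBX3iso1 and 8.94% with TBX3iso2, and the isoforms differed by 0.050 with an interval of -0.40 to 0.50. With a pseudocount of 1 RPKM the log2 differences shrank to -1.75 and -1.74 and both remained called. The full-length and ΔN forms of p63, which arise from separate promoters, are summed in this value.

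**Figure D2:**
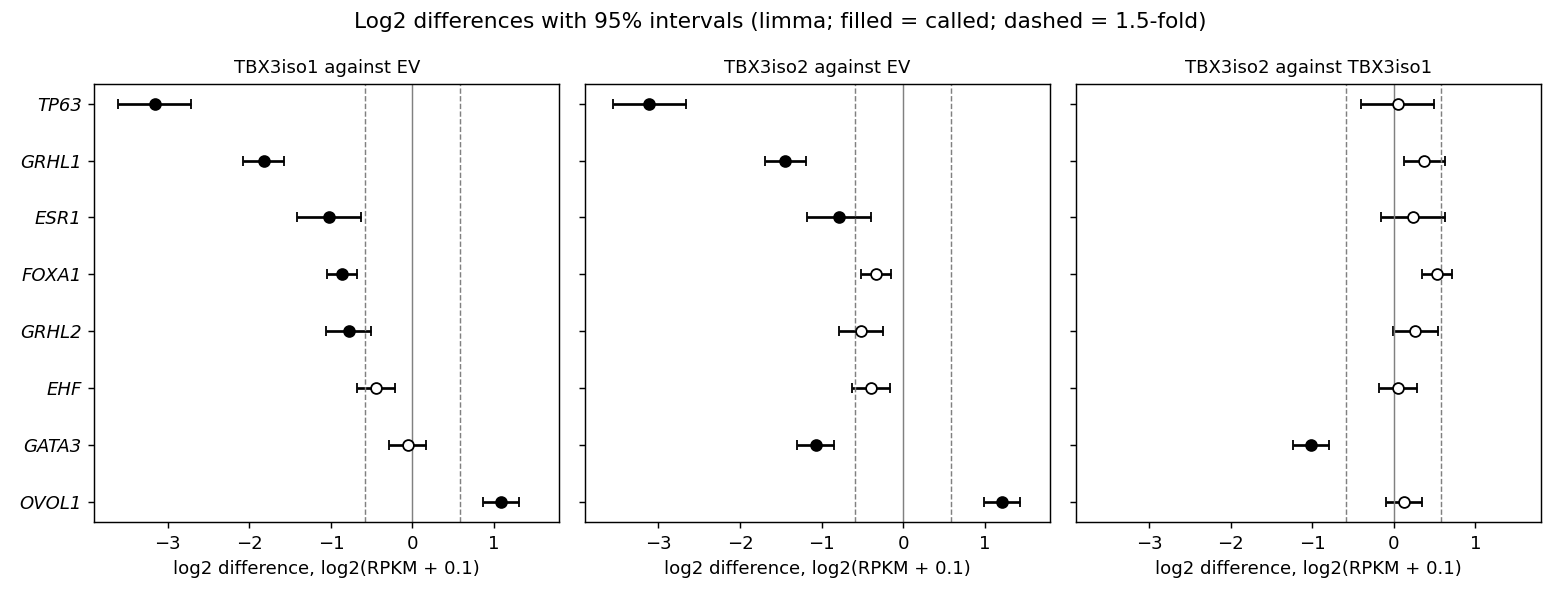
Log2 difference in log2(RPKM + 0.1) of the 8 members tested (horizontal axes) with 95% intervals, for TBX3iso1 against EV, TBX3iso2 against EV and TBX3iso2 against TBX3iso1; filled points are called, open points are not, and dashed lines mark a 1.5-fold change. *GATA3* was the member that differed most between the isoforms (-1.01), and *TP63* fell by about the same amount with both.

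Both Grainyhead-like members were lower in the TBX3 lines, *GRHL1* by far the more. *GRHL1* (chr2:10091822-10142405) was measured at 8.68 and 7.79 RPKM in EV, 2.28 and 2.23 RPKM with TBX3iso1 and 3.14 and 2.78 RPKM with TBX3iso2. The 3 lines did not overlap, with TBX3iso1 the lowest. The log2 difference from EV was -1.82 with TBX3iso1 (95% interval -2.07 to -1.57, limma adjusted p = 2.53e-05) and -1.45 with TBX3iso2 (95% interval -1.70 to -1.20, limma adjusted p = 6.45e-05). These are 27.4% and 35.9% of the EV mean. The isoforms differed by 0.37 (95% interval 0.12 to 0.62), which did not pass adjustment (limma adjusted p = 0.0587) and was short of 1.5-fold.

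*GRHL2* (chr8:102504667-102681954), the other Grainyhead-like member, was measured at 19.5 and 19.0 RPKM in EV, 12.2 and 10.2 RPKM with TBX3iso1 and 14.8 and 12.2 RPKM with TBX3iso2. Every TBX3 library was below both of EV. The log2 difference was -0.78 with TBX3iso1 (95% interval -1.06 to -0.51, limma adjusted p = 0.00158), a call that was lost in the linear model without limma's moderation (adjusted p = 0.0548). With TBX3iso2 it was -0.51 (95% interval -0.79 to -0.24, limma adjusted p = 0.00970), short of the fold limit, which it passed at -0.65 without TBX3iso2 replicate 1. The ratio of *GRHL2* to *GRHL1* was 2.25 and 2.44 in EV, 5.35 and 4.58 with TBX3iso1 and 4.71 and 4.40 with TBX3iso2. *GRHL2* was thus the more abundant of the pair in every library, and its lead over *GRHL1* was larger in the TBX3 lines.

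*OVOL1* (chr11:65554534-65564685) was the 1 member that rose. It was measured at 3.06 and 2.86 RPKM in EV, 6.51 and 6.24 RPKM with TBX3iso1 and 7.32 and 6.67 RPKM with TBX3iso2. All 4 TBX3 libraries lay well above both of EV, with means of 216% and 237% of the EV mean. The log2 difference was 1.08 with TBX3iso1 (95% interval 0.86 to 1.30, limma adjusted p = 0.000133) and 1.21 with TBX3iso2 (95% interval 0.99 to 1.44, limma adjusted p = 7.99e-05), which ranked 270th and 191st from the highest. The isoforms differed by 0.13 with an interval of -0.091 to 0.35. Because *OVOL1* rose and *GRHL1* fell, the ratio of *GRHL1* to *OVOL1* was 2.84 and 2.73 in EV, 0.351 and 0.358 with TBX3iso1 and 0.428 and 0.417 with TBX3iso2.

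*EHF* (chr11:34642640-34684835), the most abundant member, was lower in all 4 TBX3 libraries by under 1.5-fold. It was measured at 22.4 RPKM in both EV libraries, 17.1 and 15.7 RPKM with TBX3iso1 and 18.6 and 15.6 RPKM with TBX3iso2. The log2 difference was -0.44 with TBX3iso1 (95% interval -0.67 to -0.21, limma adjusted p = 0.00872) and -0.39 with TBX3iso2 (95% interval -0.62 to -0.16, limma adjusted p = 0.0145), both past the p threshold and short of 1.5-fold. *ELF5* (chr11:34500338-34546740, minus strand), the alveolar ETS factor, was measured at 0.0439 and 0.0445 RPKM in EV, 0.0190 and 0 RPKM with TBX3iso1 and 0 and 0.0225 RPKM with TBX3iso2. The EV libraries were the highest, all near 0. In a fit without the level filter the log2 differences were -0.40 and -0.38 (limma adjusted p = 0.0914 and 0.102).

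The nearest relatives of the members were read as a list of 27 genes, of which 26 were in the table and 16 were tested. With TBX3iso1, 0 were called higher and 5 lower, 31.2% of those tested, beside 21.5% of all genes tested. With TBX3iso2, 0 were called higher and 3 lower, 18.8% beside 21.2%. The median log2 difference of the 16 was -0.12 and -0.013. The same shares of all genes stand beside the counts of the lists below. The fit without the level filter, used below for low genes, called 3416 and 3395 of all 20824 genes. The ETS relative *ELF3*, an epithelial factor, fell from 50.0 and 52.4 RPKM in EV to 11.8 and 11.1 RPKM with TBX3iso1 and 13.5 and 10.5 RPKM with TBX3iso2, a log2 difference of -2.15 and -2.10 (limma adjusted p = 1.69e-05 and 1.86e-05). In EV *ELF3* was thus the more abundant of *ELF3* and *EHF*, and in both TBX3 lines it was the less abundant.

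*SPDEF*, a luminal secretory ETS factor, was measured at 25.7 and 23.8 RPKM in EV, 6.48 and 6.47 RPKM with TBX3iso1 and 14.6 and 16.2 RPKM with TBX3iso2. It fell with both isoforms, by 1.92 and by 0.68 on the log2 scale (limma adjusted p = 7.37e-06 and 0.000626), and it was the 1 relative called between the isoforms, at 1.24 (limma adjusted p = 0.000224). Like *FOXA1*, it was lowest with TBX3iso1, the opposite of *GATA3*. The Grainyhead family member *TFCP2L1* fell with both isoforms (log2 difference -0.92 and -0.96, limma adjusted p = 0.000940 and 0.000701).

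*OVOL2*, the close relative of *OVOL1*, did not follow it. It was measured at 3.31 and 3.48 RPKM in EV, 1.70 and 2.17 RPKM with TBX3iso1 and 2.32 and 2.89 RPKM with TBX3iso2. It fell with TBX3iso1 (log2 difference -0.79, limma adjusted p = 0.00514), while with TBX3iso2 its difference of -0.38 missed the threshold (limma adjusted p = 0.0808). *OVOL2* and *OVOL1* were of like level in EV, and *OVOL1* was the higher in each TBX3 library.

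The *TP63* relative *TP73*, at -0.37 and -0.078, was not called. Of the GATA family, *GATA2*, *GATA4* and *GATA6* were not called in any of the 3 comparisons.

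Among nuclear receptors, *ESR2* (ERβ) was below the level filter, with means of 0.222, 0.265 and 0.247 RPKM in EV, TBX3iso1 and TBX3iso2. *GRHL3*, also below the filter, was measured at 0.0991 and 0.117 RPKM in EV, 0.315 and 0.214 RPKM with TBX3iso1 and 0.270 and 0.229 RPKM with TBX3iso2. Without the filter it was called higher with both isoforms (0.79 and 0.75, limma adjusted p = 0.0331 and 0.0383), where *GRHL1* fell.

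**Figure D3:**
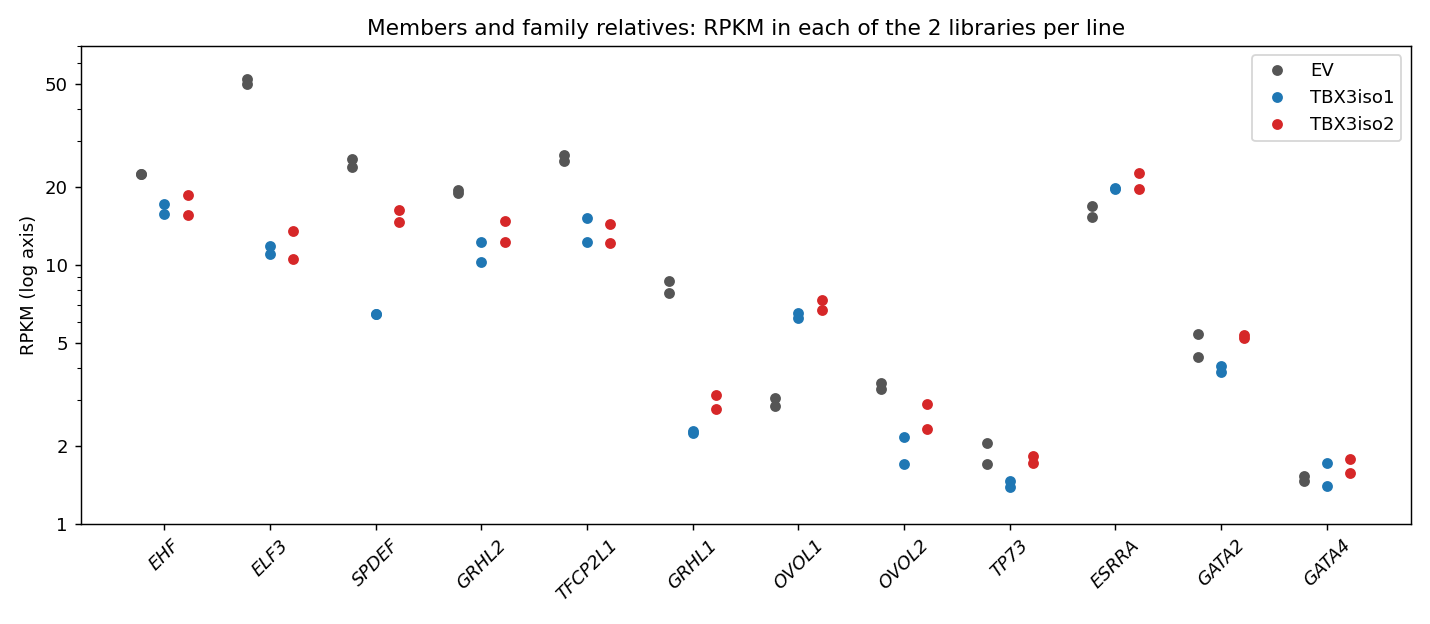
RPKM (vertical axis, log scale) in each of the 2 libraries of EV, TBX3iso1 and TBX3iso2 for 4 members and 8 of their relatives; each point is a library. *ELF3* was above *EHF* in EV and below it in both TBX3 lines, *SPDEF* was lowest with TBX3iso1, and *OVOL1* and *OVOL2* parted in the TBX3 lines.

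The genes that respond to ERα in breast cells were read as a list of 26, of which 16 were tested. With TBX3iso1, 2 were called higher and 3 lower, and with TBX3iso2, 3 higher and 3 lower, with medians of 0.27 and 0.12. Among the 16 tested, *CELSR2*, a cadherin family gene, fell most (-1.70 and -1.77), with the receptor corepressor *NRIP1* (-0.88 and -0.63) and the potassium channel gene *KCNK5* (-0.78 and -0.98). The cell cycle gene *CCND1* rose (0.65 and 0.60), and the carbonic anhydrase gene *CA12* was higher with TBX3iso1 (0.88) but measured 0.057 with TBX3iso2, and it differed between the isoforms by -0.83. *MYBL1* and the EGFR ligand gene *AREG* were called higher with TBX3iso2 (0.85 and 0.62). Of the 10 list genes below the level filter, a fit without it called 0 higher and 4 lower with TBX3iso1 (*GREB1*, *IGFBP5*, *WISP2* and *SUSD3*) and 0 higher and 3 lower with TBX3iso2 (the same without *GREB1*), named here after their values were seen. *GREB1* was measured at 0.663 and 0.602 RPKM in EV, 0.175 and 0.144 RPKM with TBX3iso1 and 0.568 and 0.551 RPKM with TBX3iso2. *WISP2* was measured at 0.982 and 0.980 RPKM in EV, 0.366 and 0.395 RPKM with TBX3iso1 and 0.0693 and 0.0827 RPKM with TBX3iso2, the lowest of the 3 lines.

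The p63 target list held 26 genes, of which 17 were tested. With TBX3iso1, 8 were called higher and 1 lower, and with TBX3iso2, 6 higher and 2 lower, with medians of 0.37 and -0.077. The parathyroid hormone-like gene *PTHLH* rose most of the 17 with TBX3iso1 (2.10, and 1.11 with TBX3iso2), with *S100A2* (1.21 and 0.69), the basal keratin gene *KRT5* (1.20 and 1.25), the integrin gene *ITGA6* (0.98 and 0.78) and the laminin gene *LAMB3* (0.92 and 0.92). The adhesion gene *FERMT1* was also higher (0.62 and 0.87). Of the 9 list genes below the level filter, a fit without it called 1 higher and 4 lower with each isoform. The 4 lower were *CLCA2*, *FAT2*, *FGFR2* and *ZNF750*, and the 1 higher was *COL17A1* (1.00 and 0.87). They are named here after their values were seen. *CLCA2* was measured at 0.567 and 0.541 RPKM in EV, 0.0244 and 0.0376 RPKM with TBX3iso1 and 0.0484 and 0.0577 RPKM with TBX3iso2. Which side of the filter a low gene stands on follows in part from its change, as the filter is a mean over all 6 libraries: *CLCA2* was above 0.5 RPKM in EV and below it on average, and *PTHLH*, at 0.266 and 0.337 RPKM in EV, passed through the TBX3 lines.

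Basal and luminal markers were read beside the lineage factors. Of 19 basal markers tested, 8 were called higher and 4 lower in TBX3iso1 cells, against 5 and 4 in TBX3iso2 cells, with medians of 0.17 and 0.30. The contractile genes *ACTA2* (-2.28 and -1.67) and *MYLK* (called with both, -1.83 with TBX3iso2) and the keratin gene *KRT15* (-1.10 and -1.47) fell, whereas *KRT5* and the laminin gene *LAMA3* (1.20 and 0.74) rose. *KRT5*, *ITGA6*, *LAMB3* and *COL17A1* stand in both this list and that of p63 targets. *TRIM29* was called in opposite directions, 0.75 with TBX3iso1 and -0.66 with TBX3iso2, and differed between the isoforms by -1.41.

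Of 16 luminal markers tested, 1 was called higher and 7 lower in TBX3iso1 cells, against 0 and 7 in TBX3iso2 cells, with medians of -0.52 and -0.44. The mucin gene *MUC1* fell most of the 16 (-1.67 and -1.84), with *AGR2*, a secretory pathway gene (-1.24 and -1.02), the ERBB receptor gene *ERBB3* (-0.90 and -0.94) and the protease inhibitor gene *SLPI* (-0.69 and -1.26). *CD24*, a luminal surface marker, fell with TBX3iso2 (-1.03) and measured -0.25 with TBX3iso1, and it was the 1 list gene called between the isoforms (-0.79), as *GATA3* was among the members. *ALDH1A3* was the 1 called higher, with TBX3iso1 (0.71, and 0.49 with TBX3iso2). Of the luminal keratin genes, *KRT19* was called lower with TBX3iso2 (-0.72, and -0.57 with TBX3iso1, short of the fold limit), and *KRT7*, *KRT8* and *KRT18* were not called.

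Of 24 Grainyhead targets tested, 1 was called higher and 9 lower in TBX3iso1 cells, against 0 and 4 in TBX3iso2 cells, with medians of -0.30 and -0.26. The tight junction gene *TJP3* fell most of the 24 (-2.70 and -2.08) and was less reduced with TBX3iso2 by 0.62. The serine protease gene *PRSS8* fell with both isoforms (-0.73 and -1.02), and the splicing factor gene *ESRP2* fell with TBX3iso1 (-0.72) and measured -0.38 with TBX3iso2. *OVOL2*, *ERBB3* and *CDH1*, given above, are also on this list. The desmosome gene *DSP* was called with TBX3iso2 alone among the 2 isoforms (-0.67, and -0.45 with TBX3iso1). The 9 lower of 24 with TBX3iso1 stand beside 14.1% of all genes tested, and the 4 of 24 with TBX3iso2 beside 12.3%.

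Genes that Ovo-like factors are known to repress were a list of 9, with 8 tested. With TBX3iso1, 5 were called higher and 2 lower, and with TBX3iso2, 2 higher and 2 lower, with medians of 0.59 and -0.015. The mesenchymal filament gene *VIM* rose most of the 8 (3.03 and 3.84), followed by *SNAI2* (1.14 and 0.65), both in the lines where *OVOL1* rose too. The cadherin gene *CDH2* was higher with TBX3iso1 (0.79) and measured -0.22 with TBX3iso2. *SNAI1* (-1.55 and -1.12) and *TWIST1* (-0.73 and -1.16) fell with both isoforms.

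**Figure D4:**
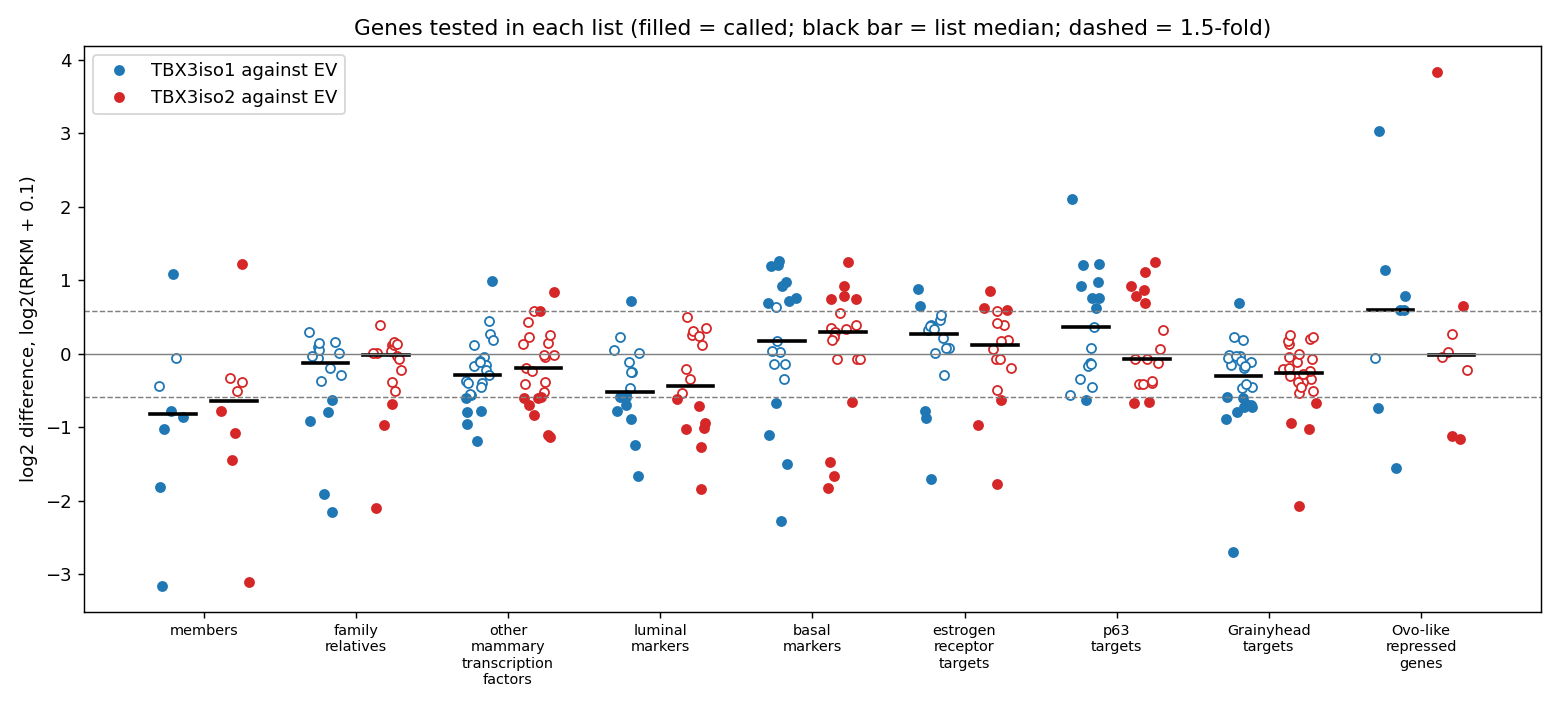
Log2 difference from EV in log2(RPKM + 0.1) (vertical axis) of each gene tested in the members and 8 further lists, for TBX3iso1 and TBX3iso2; filled points are called, black bars are list medians and dashed lines mark a 1.5-fold change. The members lay mostly below 0, with *OVOL1* alone of the 8 above it (under quantile normalization *GATA3* with TBX3iso1 was too), basal markers and p63 targets spread to both sides, and luminal markers lay mostly below 0.

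Of 23 other mammary transcription factors tested, 1 was called higher and 5 lower in TBX3iso1 cells, against 2 and 7 in TBX3iso2 cells, with medians of -0.28 and -0.19. *CEBPB*, a factor of mammary epithelial development (-1.19 and -1.11), and *PITX1* (-0.95 and -1.13) fell with both isoforms, as did *NFIB* (-0.79 and -0.61). *TEAD4*, a partner of the YAP coactivator, rose with both (0.99 and 0.59), and *BCL11A* was called higher with TBX3iso2 (0.84, and 0.44 with TBX3iso1). *MYB*, a luminal factor, was called lower with TBX3iso1 (-0.78, and -0.24 with TBX3iso2). *KLF5* was called lower with TBX3iso2 (-0.70, and -0.55 with TBX3iso1). The Notch target *HEY1* fell with TBX3iso2 (-0.83), measured -0.045 with TBX3iso1 and was the 1 gene of this list called between the isoforms (-0.78).

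For each member called in any comparison, the genes whose log2 values over the 6 libraries lay nearest to its own, after each gene's mean was subtracted, were looked up as a description (Euclidean distance; the points share libraries and depth). For *GATA3* these were *SEMA3B* (distance 0.101), *TSPAN9* (0.157) and *TAPBPL* (0.179). For *FOXA1* they were *GANC*, *ZSCAN16* and *GPD1L* (0.0900 to 0.123), and for *ESR1* *FAM160B1*, *SHROOM3* and *MAML3* (0.129 to 0.148). *TP63* had no near neighbor of that kind: its closest were *SUSD2* (0.305), *DIO2* (0.384) and *CFI* (0.403). *GRHL1* was nearest to *SLC16A5* (0.0898), *TLCD2* and *ATP10A*, *GRHL2* to *RABGAP1* (0.0442), *GFOD1* and *ARHGAP35*, and *OVOL1* to *DZIP1L* (0.127), *CD3EAP* and *EML1*.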

How the data were processed

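The authors prepared stranded mRNA libraries, sequenced them as paired ends, used TopHat with hg19 for alignment and Partek for RPKM per gene, which were deposited on the linear scale. Software versions, the gene annotation and the use of strand in counting are not given in the sources used here. RPKM hold no counts, so precision was read from the spread between replicates. The table has 1 further line with the alignments of each library, which was not used as a gene, and 0 columns of values were left out.

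Values were taken as log2(RPKM + 0.1). Genes that averaged 0.5 RPKM or more (12805 of 20824) were fitted with limma 3.58.1 in R 4.3.3 (1 mean per line over all 6 libraries, empirical Bayes with a trend, Benjamini-Hochberg adjustment over all genes tested) in 3 comparisons. Calls needed both adjusted p under 0.05 and over 1.5-fold change, and the pseudocount understates changes of low genes. With 2 libraries per line, no exact permutation test can reach 0.05. The fit was tested on simulated data. Named genes are the members, their relatives, called genes of 8 other lists (at most the 5 largest in each comparison), *TBX3*, and the 3 genes nearest to each called member, of which a few are left unreported. Outside this rule, *CD68*, *PTPRC*, *PECAM1* and *COL1A1* are named for the check of cell type, *TTC6* for its overlap with *FOXA1*, and *KRT7*, *KRT8*, *KRT18*, *KRT19* and genes below the filter (*CLCA2*, *FAT2*, *FGFR2*, *ZNF750*, *GREB1*, *IGFBP5*, *WISP2*, *SUSD3*) after their values were seen. The members and lists were chosen with earlier results of these data known, and no list was given a set test. Of the list genes, 9 were not in the table used. Gene positions are from GENCODE for GRCh37, and promoter sequences from RefSeq (GRCh38.p14). Alternatives were 2 pseudocounts, 2 filters, 2 scalings, fits with only the 2 lines compared, with a replicate block, without trend and without moderation, and leaving out each library.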

Additional observations from a re-analysis of the deposited data

Results flagged for a closer look

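*GATA3* differed between the TBX3 lines: TBX3iso2 minus TBX3iso1 was -1.014 on the log2 scale (limma adjusted p = 0.000998). Against EV the difference was -1.07 for TBX3iso2 and -0.059 for TBX3iso1. The 2 lines also differed in total *TBX3*, so isoform, *TBX3* level and line cannot be told apart. Both TBX3iso2 libraries (2.03 and 2.18 RPKM) lay below both TBX3iso1 libraries (4.41 and 4.29 RPKM). No other of the 8 members tested was called between the isoforms.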

How the results depend on the processing

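Over 16 alternatives, 363 log2 differences of members kept their direction and their side of the thresholds, 6 lost a call, 2 gained one and 7 turned sign, none of the 7 in a call. With a pseudocount of 1 RPKM, all genes called fell from 2757 to 1812 for TBX3iso1 and from 805 to 419 between the isoforms, and *ESR1* with TBX3iso2 was -0.54, short of the fold limit. With a filter at 2 RPKM, which leaves *TP63* and *ESR1* untested, members called with TBX3iso2 went from 5 to 3 of 6 tested, and genes called between the isoforms to 504. Without moderation the latter were 199. The count of members called between the isoforms ranged from 1 to 2 when 1 library was left out. The sign turned for *GATA3* with TBX3iso1 under quantile normalization (0.084), and between the isoforms for *EHF* under median-ratio scaling (-0.00172), under quantile normalization (-0.00978), without TBX3iso1 replicate 2 (-0.00911) and without TBX3iso2 replicate 1 (-0.075), and for *TP63* without the same libraries (-0.11 and -0.067). With 1 library left out the values between the isoforms ranged from -0.075 to 0.18 for *EHF* and from -0.11 to 0.21 for *TP63*. The causes were not tested.

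The split of all genes called also moved with the scaling. It was 955 higher and 1802 lower with TBX3iso1 and became 1145 and 1551 under median-ratio scaling and 1259 and 1313 under quantile normalization. With TBX3iso2 it was 1145 and 1575 and became 1315 and 1338 under quantile normalization. Between the isoforms 444 and 361 became 344 and 447 under median-ratio scaling and 351 and 435 under quantile normalization.

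The libraries share a replicate number and nothing in the labels pairs them. Their deviations correlated at 0.22 and 0.114 between each isoform and EV and at 0.499 between the isoforms. A fit with the replicate block called 2838, 2795 and 900 genes and changed no call of a member, but between the isoforms 2 members short of 1.5-fold came under the p threshold with it, *GRHL1* (limma adjusted p = 0.0587 without the block and 0.0201 with it) and *GRHL2* (0.174 and 0.0396). Depth limits *PGR* and *ELF5*, whose RPKM stayed near 0, and the table gives no counts from which their error could be had.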
